A study of Mus musculus with 12 samples.

Results

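The variable sites described here are single CpG positions whose methylation level differed widely among 6 pools of mouse spermatozoa, 3 testicular and 3 from the cauda epididymidis. They were selected on the measured values. A site was kept when it lay on an autosome, had a coverage of at least 20 reads in each of the 6 pools, and had a range of at least 30 percentage points between the pool with the highest and the pool with the lowest percentage of methylated reads. This gave 571 variable sites among 9289 autosomal sites with that coverage (6.15%), out of 13917 autosomal sites and 14149 sites in all. Because testicular and cauda values chose the sites, they are given below as a description, and no statement here rests on a test of them. Caput and corpus values took no part in the choice.

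DNA methylation was measured by reduced representation bisulfite sequencing (RRBS), which reads CpG-rich restriction fragments after bisulfite has converted unmethylated cytosines. Testicular, caput, corpus and cauda spermatozoa were profiled in 3 samples each. All came from untreated B6D2F1 mice of 10 to 12 weeks carrying the transgene Tg(CAG/su9-DsRed2, Acr3-EGFP)RBGS002Osb, that is, a red mitochondrial reporter under the ubiquitous CAG promoter and a green acrosomal reporter. Cells positive for both reporters were sorted, each sample was made from a pool of 4 mice, and cauda spermatozoa were collected by perfusion. The study called its comparisons with testicular spermatozoa paired, but did not say whether equal replicate numbers stand for the same pool in different groups. P-values from pooled reads reflect read counts, and those of fits across samples measure only the spread between these samples.

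In the male germ line, methylation patterns are laid down before birth and maintained through meiosis, so that mature spermatozoa carry most CpGs either nearly fully methylated or nearly free of methylation. An intermediate level at a CpG means that the DNA of a sample is a mixture of methylated and unmethylated molecules. These can come, for instance, from different cells or from copies of a sequence within them. After leaving the testis, spermatozoa pass through the caput, corpus and cauda of the epididymis, where they mature and are stored.

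Depth and the separation of single libraries bear on every value. The 571 sites had a median coverage of 50, 61 and 53 reads in testicular replicates 1, 2 and 3, and of 47, 40 and 46 reads in cauda replicates 1, 2 and 3. It was 33, 46 and 36 reads in the caput and 22, 51 and 33 reads in the corpus. Caput replicate 1 stood apart from its group. Over the sites with the required coverage, the mean chi-square between replicates was 8.80 and 9.25 for caput replicate 1 against replicates 2 and 3, and 4.12 between those 2, where 1 would mean read sampling alone. Corpus replicate 1, the shallowest library, gave 3.99 and 4.19 against 3.58 between corpus replicates 2 and 3. Testicular pools gave 2.52 to 3.64 and cauda pools 2.50 to 2.79, and no pair of replicates was close enough to be 1 library deposited a second time. Across the 571 variable sites, which share libraries and may share reads, caput replicate 1 correlated with the 6 pools at 0.105 to 0.171. Caput replicate 2 gave 0.474 to 0.546. The main results that rest on caput replicate 1 or corpus replicate 1 are therefore given with and without it.

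Imprinted regions served as markers of the cell type, since spermatozoa lack methylation at maternally methylated start sites. Of 12 such genes, Mcts2 and Zrsr1 had sites within 1 kb of a start site, 7 in all, with 12 to 46 reads each. Their mean was 0%, 0.733% and 7.54% in testicular replicates 1, 2 and 3 and 0%, 0% and 3.67% in the cauda pools. It was 44.5%, 9.70% and 13.8% in caput and 0%, 8.46% and 9.66% in corpus. The testicular and cauda pools were at 7.54% or less, and corpus replicate 1 was at 0%. Corpus replicates 2 and 3 and the caput samples were above all 6 pools, and caput replicate 1 was the highest of the 12 samples. Mcts2 was at 68.2%, 22.6% and 16.9% in caput and 0%, 9.20% and 0% in corpus. Zrsr1 was at 26.8%, 0% and 11.4% in caput and 0%, 7.91% and 16.9% in corpus. The site nearest H19, a paternally methylated region, was at 92.8% to 98.9% in the 6 pools, at 87.1%, 93.2% and 93.7% in caput and at 97.1%, 94.1% and 89.3% in corpus. Caput replicate 1 and corpus replicate 3 were below all 6 pools there. The 4 sites near Rasgrf1, which lie by its start site and not in its distant methylated region, were at 0% to 3.57%, and Meg3 and Zdbf2 had no site within 5 kb. The part of these marker levels in the caput values below was not tested.

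Testicular and cauda pools mostly overlapped. They did so at 522 of the 571 sites and were apart at 49, or 8.58%, beside 6.73% of all 9289 sites with the same coverage, a comparison from which nothing is read because the rule used these pools. Of the 49 sites, 15 were higher and 34 lower in cauda. The share of the sum of squares that lay between the groups had a median of 0.117, beside 0.0995 in the band of sites with a mean of 20% to 80% and 0.182 over all sites with the coverage, and was above 0.5 at 55 variable sites. The absolute difference of the group means had a median of 8.86 points. The range had a median of 29.3 points within the testicular pools and 24.4 points within the cauda pools. The range reached 30 points within at least 1 group at 407 sites (71.3%), within testicular pools at 275, within cauda pools at 200 and within both at 68. The highest and the lowest pool belonged to the same group at 247 sites (43.3%).

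No single pool accounted for the list, although testicular replicate 1 was prominent. It was the lowest of the 6 pools at 167 sites and the highest at 86, and it lay at least 20 points from the next pool at 50 sites, compared with 9 to 17 sites for the other pools. Testicular replicate 2 was the highest at 151 sites and the lowest at 37. Cauda replicate 3 was the lowest at 118 and the highest at 51. Mean methylation over the variable sites was 49.999%, 59.6% and 55.4% in testicular replicates 1, 2 and 3, and 53.8%, 55.3% and 50.4% in the cauda pools. The group means of 55.0% ± 4.83 (SD, n = 3) and 53.2% ± 2.53 (SD, n = 3) differed by less than their spread. When any 1 of the 6 pools was left out, the rule run over the other 5 gave lists of 443 to 528 sites. The groups were apart at 74 to 122 of these, with 122 in the absence of testicular replicate 1. Nothing is read from these counts, because 5 pools separate more easily than 6. Their share over all sites with the coverage is not given here.

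The site with the widest range, 87.8 points, was at position 21237510 of chromosome 2, an intergenic CpG 6595 bp from the start of Gm13378. Its level was 12.2%, 50% and 59.5% in testicular replicates 1, 2 and 3, 100%, 55.0% and 34.5% in cauda, 72.4%, 32.2% and 30.8% in caput, and 31.8%, 30.99% and 11.1% in corpus. Testicular replicate 1 and cauda replicate 1 were the extremes, with Wilson intervals (95%) of 5.32% to 25.5% from 41 reads and 90.4% to 100% from 36 reads, and the groups overlapped. Intervals cover counting error only, because several reads can be copies of 1 molecule.

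Other wide sites also had their extremes in different pools. At position 60427882 of chromosome 6, 24175 bp from A530053G22Rik, the testicular pools had 97.4%, 54.8% and 55.6% and the cauda pools 24.6%, 90% and 78.9%. The corpus samples lay at 80%, 90.3% and 100% there, and caput at 71.9%, 98.1% and 82.2%. Cauda replicate 1 was the low pool, with the other cauda pools inside the testicular range. At position 64197760 of chromosome 13, in an exon 164 bp from the start of Cdc14b, which encodes a phosphatase of the cell cycle, the pools had 38.9%, 94.5% and 94.1% in testis and 100%, 48.1% and 28.4% in cauda, from 56 to 181 reads. Here 3 pools were high and 3 low, and both groups held some of each. The caput values of 99.1%, 59.8% and 42.9% and the corpus values of 90.6%, 53.7% and 54.8% showed the same mixture, with replicate 1 the highest of either group.

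At position 41248413 of chromosome 9, 19531 bp from Gm48710, testicular levels of 2.86%, 74.6% and 33.3% contained all of the cauda values (40.4%, 39.5% and 27.6%). Caput was at 95.3%, 98.0% and 5.56%, so that its own replicates differed more than the testicular ones, and corpus was at 46.2%, 33.9% and 28.6%. In an intron of Ntf3, the gene of neurotrophin-3, position 126142147 of chromosome 6 had 29.6%, 88.9% and 96.97% in testis and 80.8%, 100% and 90.6% in cauda. Testicular replicate 1 was again the low pool. Caput lay at 55.0%, 63.6% and 53.6% and corpus at 63.6%, 88.0% and 100%. At position 60757190 of chromosome 8, in an exon of Gm45651, testicular replicate 1 was at 6.45%, beside 70.3% and 57.8% in the other testicular pools and 53.1%, 22.7% and 58.3% in cauda. Its caput values were 92.5%, 64.0% and 36.0% and its corpus values 16.7%, 44.4% and 38.9%, again with overlapping groups.

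Among sites whose groups did not overlap, the largest falls from testis to cauda were in 3 unrelated places. Position 57333820 of chromosome 6, in a repeat 4326 bp from the vomeronasal receptor gene Vmn1r16, had 57.8%, 77.1% and 92.7% in testis and 40.6%, 39.1% and 33.3% in cauda. Its caput values of 100%, 100% and 35.7% and corpus values of 61.5%, 87.2% and 48.0% spanned both groups. Position 100102672 of chromosome 2, 43739 bp from Gm13808, had 55.2%, 60.5% and 33.9% in testis and 3.26%, 7.27% and 31.7% in cauda, so that the groups were separated by testicular replicate 3 and cauda replicate 3 alone. Caput was at 70.7%, 66.3% and 76.7% there and corpus at 64.0%, 25.7% and 68.8%. Position 21602331 of chromosome 14, in an intron of Kat6b, which encodes a histone acetyltransferase, had 60%, 75% and 76.2% in testis and 26.2%, 58.8% and 21.4% in cauda. The caput samples, at 0% (24 reads, which allow up to 12.5%), 42.9% and 6.45%, were on the cauda side, and corpus was at 42.1%, 41.5% and 57.1%. The fifth widest site of the list, position 144822885 of chromosome 6 near Gm22792, had 34.2%, 71.2% and 50% in testis and 40.6%, 0% and 9.38% in cauda. Its groups overlapped through cauda replicate 1, and the 0% rested on 21 reads, which allow up to 14.3%.

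The largest rises were smaller. Position 116916953 of chromosome 14, 8362 bp from the glypican gene Gpc6, had 37.5%, 68.8% and 41.2% in testis and 77.3%, 76.0% and 83.3% in cauda. Caput, at 68.2%, 100% and 87.5%, and corpus, at 100%, 89.5% and 69.2%, lay mostly on the cauda side. Position 78259888 of chromosome 18, in an intron of the urea transporter gene Slc14a2, had 0%, 6.12% and 6% in testis and 50%, 25.6% and 20.6% in cauda, with 32 reads behind the 0%, which allow up to 9.38%. Its caput values were 27.3%, 34.2% and 18.2% and its corpus values 22.6%, 23.1% and 6.67%, all above the testicular pools. Position 59076771 of chromosome 19, 671 bp from the start of Shtn1, had 40%, 44.0% and 38.1% in testis and 69.7%, 70.4% and 60.7% in cauda. Caput was at 100%, 75% and 86.7% and corpus at 63.2%, 87.5% and 60%. The Shtn1 values came from 20 to 33 reads per pool. By logistic regression over the whole table, 15 variable sites were called between cauda and testicular spermatozoa, 12 of them lower in cauda, beside 33 of all 14149 sites (0.233%), and nothing is read from this because the rule used the same pools.

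The threshold fell inside a continuous distribution of ranges. The range had a median of 36.5 points over the variable sites and of 7.18 points over all sites with the coverage. Exactly 30 points were reached at 10 sites. Among these, position 40584898 of chromosome 2 had 70.0%, 100% and 85.3% in testis and 93.8%, 96.6% and 91.9% in cauda. Position 102667941 of chromosome 2, in an intron of the glutamate transporter gene Slc1a2, had 100%, 89.5% and 100% in testis and 100%, 70.0% and 100% in cauda. Cauda replicate 2 alone decided the membership of the Slc1a2 site. Just outside the threshold, at 29.98 points, lay position 94177860 of chromosome 8, near the metallothionein gene Mt1, with 68.5%, 82.0% and 68.8% in testis and 72.3%, 82.0% and 52.0% in cauda. At 29.97 points, position 62887454 of chromosome 13 lay near the gluconeogenic gene Fbp1 and had 51.9%, 43.8% and 28.2% in testis and 52.8%, 25% and 22.9% in cauda.

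Membership followed the mean level of the 6 pools. Variable sites made up 0.144% of the 3476 sites with a mean below 10% and 0.571% of the 4029 sites at 90% or more, but 34.9%, 46.5% and 39.2% of those at 20% to 40%, 40% to 60% and 60% to 80%. In all, 435 variable sites had a mean of 20% to 80%, a band that held 1096 sites. Membership also followed depth. It was 8% where the lowest of the 6 coverages was 20 to 29 reads and 1.93% where it was at least 100 reads. Within the band of 20% to 80%, the same shares were 58.0% and 11.2%. A range of 30 points is more easily reached at low coverage and at intermediate level. The main shares below are therefore set beside those of the band and of all sites with the coverage. The band limits the level but not the depth. The lowest of the 6 coverages had a median of 31 reads at variable sites and of 43 reads in the band.

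Many variable sites lay close together. When sites at most 100 bp apart were chained, the 571 sites, each a different CpG, formed 467 groups, of which 393 held 1 CpG, 59 held 2 and 15 held at least 3. A variable neighbour within 100 bp was found for 178 sites. Of the 395 sites with the required coverage within 100 bp of a variable site, 178 (45.1%) were variable, beside 6.15% of all sites with the coverage. Within the band of 20% to 80%, 148 of 246 such neighbours (60.2%) were variable, beside 435 of all 1096 sites (39.7%). The difference was not tested, and the 2 sets were not matched for depth. All 163 pairs of variable neighbours lay on the same strand, a median of 13 bp apart, and 146 of them had coverages within 10% of each other in all 12 samples. Such pairs may share reads, which counts per site cannot show, and they are not taken as independent. The median correlation of a pair was 0.955 over the 6 pools and 0.873 over the 6 caput and corpus samples, which the rule did not use. Pairs of sites from the band that were not variable gave 0.838 and 0.876 (250 pairs). The 217 neighbours that were not variable had a median range of 21.7 points, and their median correlation with the variable site was 0.610 over the 6 pools and 0.699 over caput and corpus. For another 268 variable sites, no CpG with the coverage lay within 100 bp.

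The 2 clusters with the most CpGs held 7 each. In the first, chr17:39844252-39844290 in Gm26917, the mean over the 7 CpGs was 8.34%, 47.5% and 25.1% in testicular replicates 1, 2 and 3 and 38.3%, 36.9% and 8.75% in cauda. Testicular replicate 1 and cauda replicate 3 were the low pools. Corpus was at 14.6%, 46.1% and 12.7% and caput at 49.7%, 45.5% and 41.3%, so that corpus spread as widely as the pools while caput did not. This stretch lies in the 45S pre-ribosomal RNA unit of the assembly, a sequence carried in many copies by mouse cells, and its 13 to 74 reads per sample may stem from any copy. In the second, chr13:119488413-119488453, where the starts of 3110070M22Rik and Tmem267 meet, the mean was 90.2%, 56.3% and 57.2% in testis and 83.9%, 93.8% and 76.1% in cauda. Testicular replicates 2 and 3 were below every other sample, caput being at 82.5%, 86.6% and 89.7% and corpus at 81.1%, 84.1% and 97.8%.

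In the promoter of Trf, the gene of the iron carrier transferrin, 5 CpGs at chr9:103212979-103213016 had a mean of 48.9%, 38.6% and 49.3% in testis and 24.8%, 64.2% and 36.9% in cauda. All caput samples (86.2%, 67.1% and 67.2%) lay above the 6 pools, and all corpus samples (41.2%, 54.5% and 42.2%) inside their range. An intergenic cluster of 5 CpGs at chr19:14426633-14426668, far from its nearest gene Tle4, had 53.3%, 89.97% and 82.1% in testis and 80.9%, 86.7% and 57.5% in cauda, again with testicular replicate 1 and cauda replicate 3 lowest. Caput was at 71.1%, 54.6% and 49.0% and corpus at 62.7%, 51.9% and 28.4%. Clusters of 4 CpGs lay in an intron of Camta1, a calmodulin-binding transcription factor gene, at chr4:151486017-151486051, and between genes at chr8:15519919-15519947. The Camta1 cluster had 45.2%, 77.4% and 80.4% in testis and 73.7%, 75.2% and 76.9% in cauda, so that testicular replicate 1 alone was low. Its caput values were 71.2%, 79.5% and 78.0% and its corpus values 100%, 64.1% and 80.6%. The chromosome 8 cluster had 24.2%, 54.5% and 29.8% in testis and 42.4%, 45.3% and 21.1% in cauda. Caput was at 53.0%, 26.9% and 39.8% and corpus at 41.7%, 46.4% and 61.7% there, in no order of the groups. Another cluster of 4 CpGs, tied in size, lay at chr17:39846262-39846278 in Gm26917, the gene of the first cluster, so that its reads may also stem from other copies. It had 40.8%, 58.4% and 43.5% in testis and 57.9%, 68.4% and 36.9% in cauda. Its caput values of 53.3%, 60.5% and 46.1% and corpus values of 64.8%, 60.7% and 43.0% lay inside the range of the pools.

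The sequences of 5 of the clusters and of 3 single sites are shown on the plus strand of GRCm38, with the variable CpGs in capitals and all other bases in lower case. The Gm6440 cluster and position 93906283 of chromosome 10 are described further on.
Ribosomal RNA unit, chr17:39844232-39844310: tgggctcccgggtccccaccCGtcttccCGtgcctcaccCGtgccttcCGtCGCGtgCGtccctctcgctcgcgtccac
3110070M22Rik and Tmem267, chr13:119488393-119488473: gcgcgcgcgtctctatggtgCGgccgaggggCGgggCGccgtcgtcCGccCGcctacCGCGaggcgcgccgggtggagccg
Trf promoter, chr9:103212959-103213036: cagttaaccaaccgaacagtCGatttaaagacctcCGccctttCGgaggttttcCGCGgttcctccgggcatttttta
Gm45651, chr8:60757153-60757211: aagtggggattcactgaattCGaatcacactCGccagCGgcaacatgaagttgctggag
Gm6440, chr16:17137354-17137409: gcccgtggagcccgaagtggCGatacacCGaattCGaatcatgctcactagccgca
Cdc14b, chr13:64197730-64197791: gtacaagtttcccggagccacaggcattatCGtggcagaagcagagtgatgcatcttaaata
Widest site, chr2:21237479-21237540: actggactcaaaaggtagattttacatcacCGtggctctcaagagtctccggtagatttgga
Chromosome 10 site, chr10:93906252-93906313: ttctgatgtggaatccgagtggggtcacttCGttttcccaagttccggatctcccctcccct
Over all variable sites, the window of 102 bases around the CpG held a median of 4 CpGs and 50% G and C, the same medians as over all sites with the coverage.

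Caput values lay above the testicular and cauda pools at many variable sites. The mean over the 571 sites was 72.7%, 62.1% and 60.4% in caput replicates 1, 2 and 3 and 53.0%, 60.6% and 54.7% in corpus. As group means, caput had 65.1% ± 6.64 (SD, n = 3), or 61.3% without replicate 1, and corpus 56.1% ± 4.02 (SD, n = 3). The mean of the 3 caput samples was above the highest of the 6 pools at 204 variable sites (35.7%) and below the lowest at 60 (10.5%). Without caput replicate 1 the counts were 156 (27.3%) and 54 (9.46%), beside 41.1% and 11.0% in the band and 20.9% and 17.1% of all sites with the coverage. In the band of 20% to 80% the shares with all 3 samples were 51.0% and 12.1%, and over all sites with the coverage 23.8% and 19.01%. Sites with a wide range leave less room outside it. The corpus mean was outside at 94 variable sites, above at 60 and below at 34. It was therefore inside the range of the pools at 83.5% of the variable sites, beside 65.4% in the band and 68.7% of all sites with the coverage. Without corpus replicate 1 the corpus mean was above at 80 (14.0%) and below at 37 (6.48%). The same shares were 24.2% and 10.7% in the band and 17.8% and 13.5% of all sites with the coverage.

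The caput and corpus values are given here by the level of the 6 pools. At the 52 variable sites with a mean of the 6 pools below 20%, whose average was 15.2%, caput replicates 1, 2 and 3 had 65.2%, 38.6% and 37.3% and corpus 22.3%, 30.9% and 26.2%. At the 129 sites of 20% to 40%, caput had 67.3%, 46.3% and 44.0%. All sites of that level with the coverage had 62.5%, 45.2% and 41.9% in caput. At the 84 sites of 80% or more, whose average was 86.5%, caput had 77.6%, 82.3% and 82.8%, below the pools, and corpus had 83.7%, 86.0% and 85.2%. The same pools chose the sites and set these levels, and the part of this choice in the caput and corpus values was not tested. Over all sites with the coverage, those below 20% had an average of 2.69% in the pools and 20.8%, 11.4% and 10.9% in caput, and those of 80% or more had 95.9% in the pools and 84.7%, 91.1% and 91.8% in caput. Caput replicates 1, 2 and 3 were above the highest pool at 302 (52.9%), 173 (30.3%) and 176 (30.8%) variable sites. The same shares were 64.2%, 44.7% and 39.1% in the band and 26.3%, 21.1% and 19.9% of all sites with the coverage. In that order, the replicates were below the lowest pool at 79 (13.8%), 55 (9.63%) and 75 (13.1%) variable sites. Those shares were 14.6%, 11.6% and 14.96% in the band and 21.05%, 16.9% and 16.5% of all sites with the coverage. All 3 caput samples were above the 6 pools at 89 variable sites (15.6%) and below them at 22 (3.85%), beside 24.1% and 5.29% in the band and 12.6% and 7.44% of all sites with the coverage. Without caput replicate 1, the other 2 were both above at 99 variable sites (17.3%) and below at 30 (5.25%), beside 25.6% and 6.48% in the band and 13.6% and 8.96% of all sites with the coverage. All 3 corpus samples were above at 9 variable sites (1.58%) and below at 6 (1.05%), beside 5.93% and 2.83% in the band and 5.10% and 3.30% of all sites with the coverage. Without corpus replicate 1, the other 2 were both above at 32 (5.60%) and below at 12 (2.10%), beside 12.3% and 4.01% in the band and 9.17% and 5.91% of all sites with the coverage.

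The 3 sites with the caput mean farthest outside the pools were neighbouring CpGs in an exon of Gm6440, at chr16:17137374-17137389, 46 to 60 bp from its start. The cluster mean was 0%, 34.9% and 24.1% in testis and 4.45%, 0% and 14.7% in cauda, but 94.4%, 80.7% and 62.0% in caput. Corpus was at 29.01%, 42.4% and 53.1%, so that the caput samples exceeded every other sample, and of the corpus samples only replicate 1 lay within the range of the pools. At position 17137374, the 0% of testicular replicate 1 rested on 38 reads and that of cauda replicate 2 on 36, which allow up to 7.89% and 8.33%. Corpus stood out most at position 34997917 of chromosome 6, 9513 bp from Slc23a4, a nucleobase transporter gene. It had 0%, 23.7% and 15.4% in testis and 33.3%, 0% and 4.84% in cauda, beside 78.6%, 56.5% and 43.8% in caput and 85.7%, 56.0% and 46.2% in corpus. All 6 caput and corpus values were above all 6 pools, as they were at 5 variable sites in total (0.876%), beside 3.83% in the band and 4.04% of all sites with the coverage. All 6 were below all 6 pools at 3 variable sites (0.525%), beside 1.73% in the band and 2.28% of all sites with the coverage.

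The reverse order appeared in the coding sequence of Emx2, a homeobox gene of brain and urogenital development, at position 59464041 of chromosome 19. The testicular pools had 95.7%, 85.5% and 65.2% and the cauda pools 82.4%, 75.9% and 82.1%, but caput had 16.2%, 40.9% and 29.4% and corpus 20%, 71.4% and 30.8%. Only corpus replicate 2 reached the range of the pools. At position 68898199 of chromosome 16, in a repeat 3697 bp from Gm23591, the pools had 39.2%, 33.9% and 8.57% in testis and 20.7%, 31.7% and 28.6% in cauda. Caput had 81.2%, 60.9% and 40% and corpus 47.1%, 72.9% and 66.0%, and these 6 samples were above the 6 pools.

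Corpus and caput were compared by logistic regression on the reads of each site, adjusted over the 14149 sites of the table by the Benjamini-Hochberg method, and a site was called when the adjusted p was below 0.01 and the 2 groups differed by more than 25 points. Of the 571 variable sites, 125 (21.9%) were called, beside 9.51% of the table. Corpus was lower at 97 of them, a direction found at 6.86% of the table, and higher at 28, beside 376 of the 14149 sites of the table. In the band of 20% to 80%, 189 of 1096 sites (17.2%) were called, and of all sites with the coverage 892 (9.60%). The count rested in part on caput replicate 1. Without it, 64 variable sites (11.2%) were called, beside 4.1% of the table. Corpus was lower at 44 and higher at 20 of these 64, beside 398 and 182 of the 14149 sites of the table. With caput replicate 1 and corpus replicate 1 both left out, an alternative chosen after seeing the data, 55 variable sites (9.63%) were called, beside 3.8% of the table. Without corpus replicate 1 alone the count was 102 (17.9%), beside 8.69%, and without corpus replicate 2 it was 193 (33.8%), beside 11.6%. This regression takes all reads as independent. With limma, which uses the scatter between samples, 0 sites of the table were called. In a simulation, reads were drawn with sampling error alone. There limma recovered 65 of 200 changes of 50 points with a pseudo-percent of 1 and 68 with a pseudo-percent of 5. The caput and corpus replicates scattered more than this, so the counts do not give the power of limma on these samples. An unadjusted p under 0.05 was reached by limma at 56 variable sites (9.81%) with a pseudo-percent of 1, beside 827 in the table (5.84%), and at 73 (12.8%) with a pseudo-percent of 5, beside 894 (6.32%). A fit with an overdispersion term also called 0 sites, which carries no information, since it had too little power to call a change with so few samples. It reached an unadjusted p under 0.05 at 51 variable sites (8.93%), beside 807 in the table (5.70%).

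Among the sites described, Gm6440 was called at all 3 CpGs, with corpus below caput, also without caput replicate 1 or without corpus replicate 1. It was called at 0 of the 3 without both, where the differences were -22.2, -23.9 and -20.5 points by position, short of the threshold of 25. Position 41248413 of chromosome 9 was called lower in corpus in each of these settings, although caput replicate 3 lay below all corpus samples. The Kat6b and Ntf3 sites were called higher in corpus in each setting. The Slc1a2 site was at 25%, 100% and 66.7% in caput and 100%, 96.6% and 100% in corpus. It was called higher in corpus, but not without caput replicate 1, where the difference was 13.8 points. Position 60757190 of chromosome 8 in Gm45651 was called lower, but not without caput replicate 1 (-17.8 points) and not without corpus replicate 1 (-25.6 points). Position 100102672 of chromosome 2 was called lower in corpus only when corpus replicate 1 was left out. The Cdc14b site, the widest site and the Emx2 site were not called in any of these settings.

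The spread within corpus and within caput was also independent of the choice. Of the variable sites, 279 had at least 20 reads in all 3 corpus samples, and 93 of these (33.3%) had a range of at least 30 points, beside 7.88% of all sites with the coverage and 27.7% of those in the band. With corpus replicates 2 and 3 only, 64 of 466 (13.7%) reached 30 points, beside 3.07% and 10.5%. In caput replicates 1 to 3 the count was 166 of 409 (40.6%), beside 20% and 36.5%. With caput replicates 2 and 3 only, it was 53 of 483 (11.0%), beside 3.62% and 8.76%. For the variable sites in the band alone, the shares were 36%, 15.2%, 41.6% and 11.4% in the order given. In each of the 4 sets the variable sites were above all sites with the coverage. The difference from the band was not tested, and the band was not matched for depth. The median chi-square per degree of freedom within caput was 4.72 at variable sites, 5.67 in the band and 4.14 over all sites with the coverage, and between caput replicates 2 and 3 it was 2.41, 2.19 and 2.37. Within corpus it was 3.16, 3.44 and 2.38, and between corpus replicates 2 and 3 it was 2.21, 2.17 and 1.92. Variable sites were thus below the band with all 3 replicates and slightly above it with replicates 2 and 3.

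Certain pools were low together more often than others. Of the 15 pairs of pools, testicular replicate 1 and cauda replicate 3 were both below the other 4 pools at 108 variable sites, and every other pair at 10 to 58. Testicular replicates 2 and 3 were both above the others at 89 sites. An example of the first pair, chosen after its values were seen, is position 93906283 of chromosome 10, an intergenic CpG read on the minus strand 9125 bp from 4930471D02Rik. It had 0%, 51.5% and 45.7% in testis, 47.0%, 34.7% and 0% in cauda, 37.5%, 49.1% and 1.89% in caput and 37.5%, 44.3% and 0% in corpus. The 4 samples near 0 had 46 to 105 reads, and the 8 others lay between 34.7% and 51.5%. The zeros allow up to 2.86% in testicular replicate 1, 6.52% in cauda replicate 3 and 4.69% in corpus replicate 3.

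By position, 239 variable sites (41.9%) were intergenic, 141 (24.7%) lay in introns, 35 (6.13%) in exons and 156 (27.3%) within 2 kb of a start site. Over all sites with the coverage the shares were 30.3%, 23.8%, 6.47% and 39.4%, and in the band 44.6%, 19.7%, 5.11% and 30.6%. Repeats held 19.97% of the variable sites, 18.3% of all sites with the coverage and 23.3% of the band. The 30 bases around the CpG occurred more than 1 time in the assembly for 29 variable sites (5.08%), beside 4.91% and 7.48%. Both Gm26917 clusters described above had 1 copy by this count, which covers only the assembly. Each autosome held variable sites, from 4.02% of its covered sites on chromosome 3 to 9.17% on chromosome 17, where Gm26917 contributed 12 of 43. Of 24 imprinted genes, 7 had sites in the table, 7 sites had the coverage and 1 was variable, in the coding sequence of Peg10, a paternally expressed gene derived from a retrotransposon, at position 4755947 of chromosome 6. It had 91.1%, 86.3% and 72.5% in testis, 81.0%, 54.5% and 70.3% in cauda, 89.5%, 71.4% and 100% in caput and 100%, 82.9% and 100% in corpus. Cauda replicate 2 was the lowest sample and the groups overlapped. Of 20 germline genes, 3 sites had the coverage and 0 were variable, and the 3 genes of metastable epialleles had no site with the coverage.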

How the data were processed

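Methylation was measured by RRBS in 12 sperm samples, grouped by the origin and replicate in their labels. According to the submitters' notes, the authors processed reads with FastQC, Trim Galore 0.4.1 and Bismark 0.16.1 on GRCm38 and used methylKit. The deposited table gives, without normalization, the count of all, methylated and unmethylated reads per CpG site and sample, and every site has at least 10 reads in every sample. Of its per-sample columns, 0 were left out. The 6 deposited lists hold only the authors' own comparisons (difference, p and q) and were not used.

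Percent methylation was computed as methylated reads over coverage. The variable sites and the gene lists were chosen with earlier results of these data known. The regression was a likelihood-ratio chi-square test on pooled reads per site. Alternatives were other coverage, range, distance and calling thresholds, both strands summed, a replicate block, limma on log2 ratios of methylated to unmethylated percentages (pseudo-percent 1 or 5), an overdispersion term and leaving out replicates. Tests were checked on data simulated with read sampling alone. Genes came from GENCODE M21, repeats and sequences from GRCm38. Exact copies of 30 bases were counted on the assembled chromosomes, a measure added after seeing the data.

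Sites were named by rule: the 5 widest ranges, the 3 largest differences in either direction among separate groups, the 3 widest ranges within either group, the 6 clusters with most CpGs (at least 3, ties by position, with the remaining cluster of 4 CpGs added), 2 sites on either side of the threshold, the 3 sites with caput or corpus farthest outside the pools, and sites in imprinted, germline or metastable epiallele genes. Python 3.11.15 with numpy 2.4.6, pandas 2.3.3 and scipy 1.17.1, samtools 1.23.1 and, in R 4.3.3, limma 3.58.1 were used.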

Additional observations from a re-analysis of the deposited data

How the results depend on the processing

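The number of variable sites was 1027 at a coverage of at least 10 reads, 317 at 30 reads, 1431 at a range of 20 points and 210 at 40 points, which follows from the rule. In that order, the sites with separate groups numbered 87, 24, 126 and 17, those with a variable neighbour within 100 bp 355, 113, 555 and 53, those with the caput mean outside the pools 447, 152, 746 and 85, and those with the corpus mean outside 168, 58, 338 and 25. Leaving out 1 testicular or cauda pool in turn gave 74 to 122 sites with separate groups, and a between-group share of 0.129 to 0.282, where fewer pools separate more easily. For all these settings, the share of separate groups over all sites with the coverage is not given, and nothing is read from the counts. Called sites between corpus and caput fell to 17 (321 in the table) at a difference above 40 points, and to 51 (446) with at least 20 reads in every sample, where fewer sites were tested. They fell to 0 and 0 with limma at either pseudo-percent and with the overdispersion term, whose 0 carries no information for want of power. With replicates 2 and 3 only, an alternative chosen after seeing the data, they numbered 55 (538). Leaving out 1 caput or corpus replicate in turn gave 64 to 193 variable sites and 580 to 1840 sites in the table. The same pools chose the sites, so nothing is read from the called sites between cauda and testis. These were 0 with the overdispersion term and with limma, with 0 in the table. Above 40 points they were 0 (3 in the table), and with 1 replicate left out in turn 19 to 40 (33 to 63 in the table). With the replicate block, 125 variable sites (1307 in the table) were called between corpus and caput and 14 (32 in the table) between cauda and testis. Whether replicate numbers pair the samples is not settled by the labels or the data. Deviations from the group mean of same-numbered testicular and cauda pools correlated at -0.248, -0.0781 and -0.159 over the variable sites, and those of caput and corpus at -0.122, -0.171 and 0.0593. Cauda correlated with same-numbered caput at 0.0671, 0.0227 and 0.155 and with same-numbered corpus at 0.0839, 0.0432 and 0.142, all above 0 but not all above 0.1. For testis the mean was -0.0287 with caput and -0.0756 with corpus. Between other numbers, testicular 1 and cauda 3 had 0.253, testicular 2 and cauda 1 0.239 and caput 1 and corpus 2 0.244, so not every sample correlated best with its own number. Centring on 3 samples ties these values to each other. Depth limits single values most in corpus replicate 1, with a median of 22 reads at the variable sites.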
